A study of Mus musculus with 7 samples.

Results

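Polyamine metabolism was followed through 10 genes in RNA-Seq of mouse glioma tissue: the catabolic genes Sat1, Paox and Smox, the biosynthetic genes Odc1, Srm, Sms and Amd1, and the genes Oaz1, Oaz2 and Azin1, whose proteins control ornithine decarboxylase. They were found by symbol among the 19257 genes of the table of normalized counts. Of the 10 genes, 9 were found, Amd1 was not analysed here, and 8 passed the minimum mean of 10 normalized counts that 14782 genes passed, the exception being Oaz1. The choice started from Sat1, which stood out among the genes lower in GPC6 tumors, so the differences between groups below are a description. No p-value is given for Sat1, and nothing is read from counts of members past a threshold.

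The 3xCR tumors (genotype control in the labels, 3 libraries, replicates 2, 3 and 4) arose after in utero electroporation of CRISPR constructs whose guides cut tumor suppressors such as Nf1 and Trp53, in mice of CD-1 and C57BL/6 backgrounds. The GPC6 tumors (4 libraries, replicates 1 to 4) had the same guides plus overexpression of GPC6, a glypican that sits on the cell surface. The labels do not give the strain, sex or age behind each library, and brains without a tumor were not analysed here. Each library is a biological replicate of bulk tumor tissue taken at endpoint with the aid of a fluorescence microscope, so it holds RNA of tumor cells, neurons, glia and immune cells, and fewer cells of a type cannot be told apart from less RNA per cell.

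The libraries held 7197692 to 18879762 reads on genes, and the depth did not separate the groups (exact permutation test, two-sided, p = 0.457, and 3 libraries against 4 cannot give a p below 0.0571). Gpc6 had 217, 226 and 126 normalized counts in the 3xCR libraries and 675, 263, 3434 and 5084 in GPC6 replicates 1 to 4, so 1 library, labelled GPC6 replicate 2, was close to the 3xCR libraries. GPC6 replicate 1 stood apart by its summed neuronal markers (60810, against 2366 to 32510 in the others) and its low summed markers of proliferating cells (662, against 5090 to 13293). Rn45s, the ribosomal RNA precursor, took 2.52% to 2.79% of reads in 3xCR tumors and 0.914% to 1.39% in GPC6 tumors, and its part in the results below was not tested. Y-linked genes had 788 and 1695 reads in GPC6 replicates 1 and 2 and at most 2 in each of the other 5 libraries.

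Polyamines (putrescine, spermidine and spermine) are small positively charged molecules that bind RNA and DNA and that dividing cells need in quantity. Ornithine decarboxylase, encoded by Odc1, makes putrescine, and spermidine synthase (Srm) and spermine synthase (Sms) extend it with groups taken from S-adenosylmethionine that Amd1 has decarboxylated. Sat1 encodes the acetyltransferase that marks spermidine and spermine for export or for oxidation by the peroxisomal oxidase of Paox, whereas the spermine oxidase of Smox acts on spermine directly. Much of the control lies after transcription: antizymes (Oaz1, Oaz2) carry ornithine decarboxylase to the proteasome, the antizyme inhibitor Azin1 releases it, and polyamines change how Sat1 RNA is spliced and translated. Read counts per gene show the amount of RNA and none of these later steps.

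Antizyme RNA holds the control in its sequence, since ribosomes must slip by 1 base at an early stop codon to make the full protein, and polyamines favor the slip. The 30 bases around that site are shown for both antizymes, from the GENCODE transcripts of GRCm38 that hold them, with the last codon of the first reading frame and its stop codon in capitals.
Oaz1: gggcctcggtggtgcTCCTGAtgtccctca
Oaz2: gggcctctgtggtgcTCCTGAtgcccctca
The letters were the same at 28 of the 30 positions. A count of reads per gene does not say how many ribosomes shifted here.

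Sat1 and Paox were the members whose groups did not overlap, both lower in GPC6 tumors, as were 3.52% of all genes tested. The 250 bases before their start sites are therefore shown (RefSeq, build GRCm38.p6, 5′ to 3′ on the strand of the gene). The letters of the GC box GGGCGG on either strand are in capitals. The window of Sat1 is chrX:155216450-155216699 on the minus strand, and that of Paox, the first of its start sites listed, is chr7:140125407-140125656 on the plus strand.
Sat1: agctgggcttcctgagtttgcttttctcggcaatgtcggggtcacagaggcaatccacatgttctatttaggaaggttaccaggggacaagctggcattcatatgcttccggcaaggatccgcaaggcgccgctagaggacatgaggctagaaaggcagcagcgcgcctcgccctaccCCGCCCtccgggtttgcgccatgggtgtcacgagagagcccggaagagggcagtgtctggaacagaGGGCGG
Paox: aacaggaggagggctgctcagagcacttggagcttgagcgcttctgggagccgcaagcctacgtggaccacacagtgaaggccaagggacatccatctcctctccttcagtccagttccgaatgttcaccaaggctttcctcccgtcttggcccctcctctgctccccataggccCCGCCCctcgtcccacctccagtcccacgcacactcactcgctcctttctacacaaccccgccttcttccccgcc
The Sat1 window held 2 GC boxes and the Paox window 1, a motif that 32.7% of the 32851 windows of this length held. The second listed window of Paox (140125435 to 140125684), which overlaps the one shown, held 3. Both Paox windows lie inside the span of the gene in GENCODE, given below. Neither of the windows shown held the E-box CACGTG (6.02% of windows), the polyamine response element TATGACTAA (0.0944%), the antioxidant response element core TGACNNNGC (10.2%), TATAAA (12.4%) or CCAAT (33.8%). Bases outside the windows were not searched, so a site farther away would be missed. Both strands were searched for each motif, and the polyamine response element and the antioxidant core share the letters TGAC, so that their matches can overlap. Among the other members, an E-box was found in 1 of the listed windows of Sms, and the antioxidant core in 1 place each before Smox and Oaz1.

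Of the catabolic genes, Sat1 and Paox had separate groups, as did 6.32% of all genes tested, and Smox did not. Sat1 lies on chromosome X (155213132 to 155216449 of GRCm38, minus strand), and the 3xCR libraries (replicates 2, 3 and 4, in this order throughout) had 2858, 2457 and 3047 normalized counts of it. The GPC6 libraries (replicates 1 to 4, in this order) had 1365, 1798, 1520 and 1466. Every GPC6 library lay below every 3xCR library. The highest GPC6 value came from replicate 2, with little Gpc6 (263), but the lowest from replicate 1, with the next lowest Gpc6 (675). A relation to Gpc6 was not tested. The means were 2787 ± 301 (SD, n = 3) and 1537 ± 185 (SD, n = 4), a ratio of 0.552, and the log2 fold change on log2(normalized count + 1) was -0.86 with a standard error of 0.19. These counts rest on 883 to 5214 reads per library.

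Paox, on chromosome 7 (140115799 to 140137224, plus strand), had 231, 249 and 376 normalized counts in the 3xCR libraries and 125, 203, 101 and 149 in the GPC6 libraries. The GPC6 replicate 2 value was the highest of its group and came nearest to the 3xCR range. The means were 285 ± 78.9 (SD, n = 3) and 145 ± 43.4 (SD, n = 4), and the log2 fold change was -0.99 with a standard error of 0.32, on 81 to 421 reads per library. The 5′ end of the annotated Paox gene overlaps Echs1 on the other strand, and although the library kit keeps the strand, whether the counting used it is not stated. Echs1, a gene of fatty acid oxidation, had 972 to 1176 normalized counts in 3xCR and 838 to 1047 in GPC6 tumors, which overlapped.

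Smox, on chromosome 2 (131491496 to 131525922, plus strand), did not separate the groups. Its normalized counts were 1369, 826 and 738 in 3xCR and 1049, 1068, 797 and 340 in GPC6 tumors, so the lowest and the next-to-highest values of the 7 libraries were both in GPC6. The log2 fold change was -0.34 with a standard error of 0.44, and it changed sign to 0.033 without GPC6 replicate 4. Summed per kilobase of exon, the 3 catabolic genes had 1149 to 1429 normalized counts in the 3xCR and 646 to 964 in the GPC6 libraries. Sat1, picked for its difference, is the largest part of this sum, so nothing is read from its separation. The same sum of Odc1, Srm and Sms overlapped, at 1109 to 2028 in the 3xCR and 848 to 2428 in the GPC6 libraries.

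**Figure D1:**
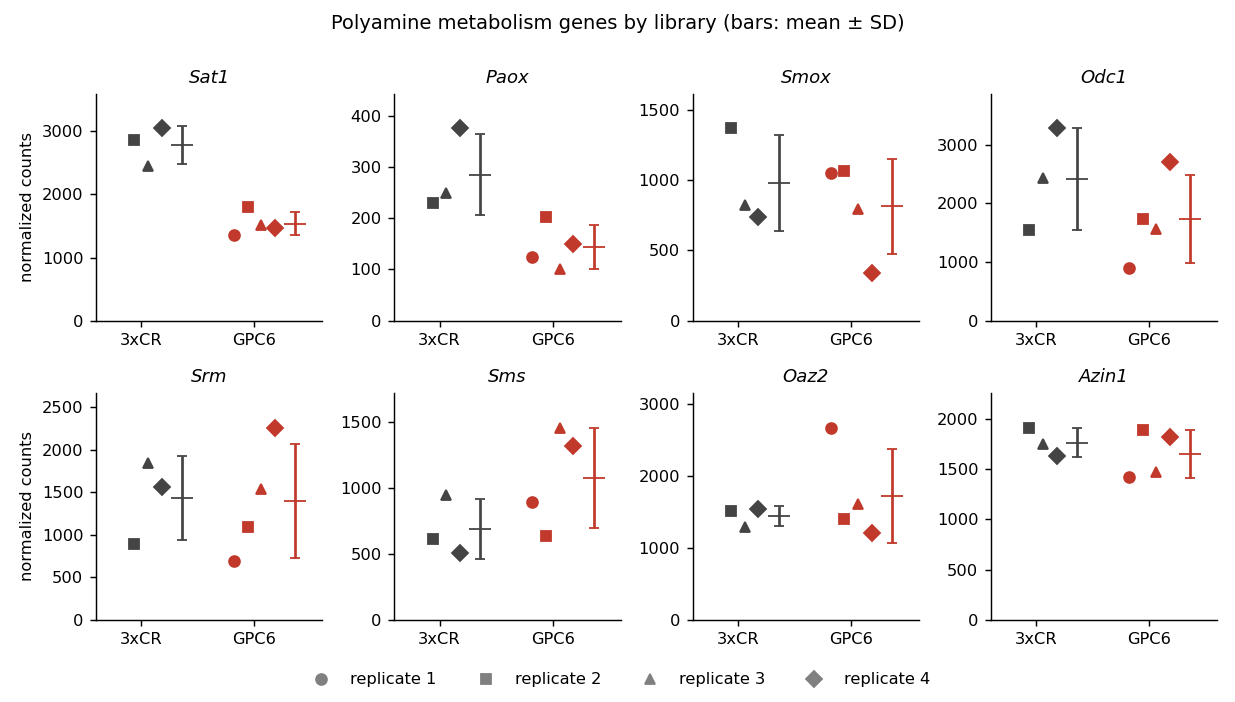
Normalized counts (vertical axes, from 0) of the 8 members that passed the minimum, in the 3 3xCR libraries (grey) and the 4 GPC6 libraries (red), with marker shapes for the replicate number and bars for the mean ± SD. All GPC6 points of Sat1 (1365 to 1798) and of Paox (101 to 203) lie below the 3xCR points, a pattern of 3.52% of all genes tested. The groups overlap in the other 6 genes.

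None of the 14782 genes tested, the 8 members among them, had an adjusted p under 0.05 in limma (0%). An unadjusted p under 0.05 was found for 4.66% of the genes, and for 1.92% with GPC6 lower. edgeR's quasi-likelihood test on the recovered reads also called none at an adjusted p under 0.05 and 991 genes (6.7%) at an unadjusted p under 0.05, whereas the Wald test of DESeq2 called 4 genes (0.0209% of 19097) and 1853 (9.7%), with no member among the 4. With voom 0 genes passed at the adjusted and 3.38% at the unadjusted threshold. With weights per library, 13.3% of the genes passed the adjusted threshold, 2 of the 8 members among them, and 34.5% the unadjusted one. The groups did not overlap in 2 of the 8 members, against 6.32% of all genes tested. GPC6 was lower in both, a pattern that 3.52% of the genes had, and 0 of the 8 were higher without overlap, against 2.8% of the genes. As Sat1 was picked for its difference, nothing is read from these counts. The mean log2 value was lower in GPC6 tumors for 6 of the 8 members, against 51.7% of all genes tested, and the median log2 fold change was -0.22 over the members and -0.019 over all genes tested.

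Biosynthetic genes had no common direction. Odc1, on chromosome 12 (17544794 to 17551505, plus strand), had 1540, 2440 and 3279 normalized counts in 3xCR and 904, 1729, 1568 and 2713 in GPC6 tumors, each group spanning more than the distance between their means. The log2 fold change was -0.52 with a standard error of 0.41. Srm, on chromosome 4 (148591503 to 148594993, plus strand), had 887, 1846 and 1558 normalized counts in 3xCR and 694, 1088, 1537 and 2258 in GPC6 tumors, so that GPC6 held both the lowest and the highest library. Its log2 fold change of -0.10, with a standard error of 0.43, became 0.19 without GPC6 replicate 1.

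Sms, on chromosome X (157443855 to 157492287, minus strand), was the biosynthetic gene with a higher mean in GPC6 tumors. Its normalized counts were 611, 943 and 508 in 3xCR and 895, 631, 1455 and 1316 in GPC6 tumors, with GPC6 replicates 3 and 4 above all 3xCR libraries and the other two within their range. The log2 fold change was 0.62 with a standard error of 0.35, and it stayed above 0 with each library left out in turn (0.43 to 0.87). Per kilobase of exon, Sms RNA was 0.0868 to 0.183 of Srm RNA in the 3xCR and 0.154 to 0.343 in the GPC6 libraries, again with an overlap.

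Sat1 and Sms are both on chromosome X, and the 3 3xCR libraries had next to no Y-linked reads. In the GPC6 replicates without such reads, 3 and 4, Sat1 had 1520 and 1466 normalized counts, within the range of 1365 and 1798 in the replicates that had them. Sms had 1455 and 1316 normalized counts in GPC6 replicates 3 and 4, above the 895 and 631 in replicates 1 and 2. A relation of Sms to Y-linked reads was not tested. Over the 5 libraries without Y-linked reads the log2 fold change of Sat1 was -0.89, that of Paox -1.17 and that of Sms 1.06. This subset was chosen after seeing the data.

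Of the genes that control ornithine decarboxylase, Azin1 was the steadiest member. Azin1, on chromosome 15 (38487427 to 38519266, minus strand), had 1914, 1747 and 1633 normalized counts in 3xCR and 1422, 1886, 1473 and 1817 in GPC6 tumors. Its coefficient of variation over the 7 libraries was 11.5%, and 3.65% of the genes tested had a lower one, against 30.7% for Oaz2 and 33.9% to 45.5% for the other members. An antisense gene, Gm49077, overlaps its 5′ end. The log2 fold change of Azin1 was -0.11 with a standard error of 0.20.

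Oaz2, on chromosome 9 (65668001 to 65690300, plus strand), had 1511, 1287 and 1540 normalized counts in 3xCR and 2674, 1396, 1610 and 1213 in GPC6 tumors. GPC6 replicate 1 was far above the others, and the remaining 3 GPC6 libraries (1213 to 1610) overlapped with 3xCR. The log2 fold change of 0.19, with a standard error of 0.29, changed sign to -0.045 without that library.

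Oaz1, on chromosome 10 (80826656 to 80829290, plus strand), was listed at 0 in 3xCR replicates 3 and 4 and in GPC6 replicates 1, 2 and 4, and at 0.548 and 0.887 normalized counts, 1 read each, in 3xCR replicate 2 and GPC6 replicate 3. In the 5 libraries at 0, that count allows 2.79 to 4.64 normalized counts, for counting error only. Antizyme 1 is made in nearly every mammalian cell, and a processed pseudogene of it, Oaz1-ps, is annotated on chromosome 17, so the listed zeros are given here as values of this table and not as a level in the tumors.

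**Figure D2:**
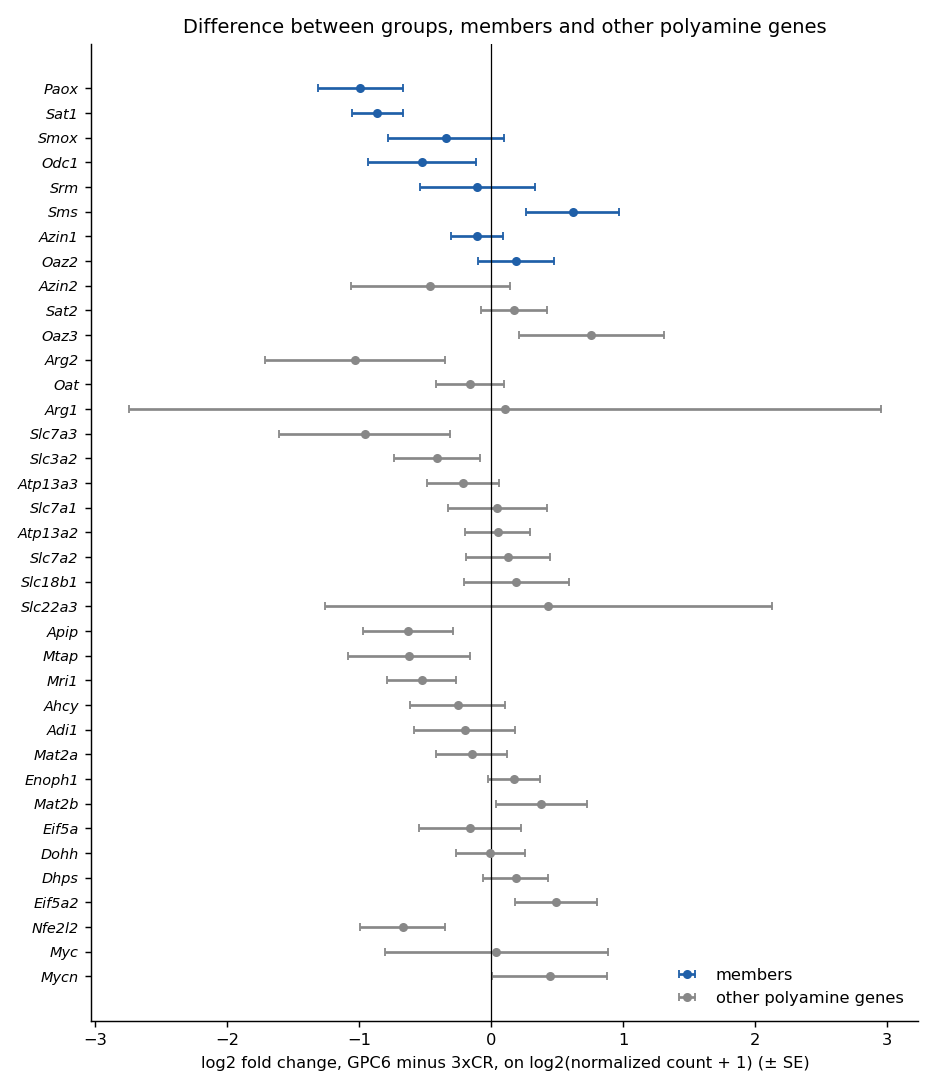
Log2 fold change (horizontal axis, GPC6 minus 3xCR, ± standard error of the limma fit) of 8 members (blue) and 29 other genes of polyamine metabolism (grey), grouped by role. Of the members, 6 lie below 0, from Paox (-0.99) to Srm (-0.10), Oaz2 (0.19) and Sms (0.62) lie above it, and Arg1 has the widest error (2.85).

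Compared per kilobase of the union of annotated exons, the mean levels over the 7 libraries ran from Srm (882 normalized counts per kilobase) through Sat1 (747), Odc1 (595), Oaz2 (537), Azin1 (272), Smox (227) and Sms (151) to Paox (41.7). Neighbors in this order overlapped over the libraries, except that Sms (84.6 to 242) lay above Paox (20.6 to 76.6) and that Oaz2 (406 to 894) lay above Azin1 (227 to 306). The order also differed between the groups, as Sat1 came first in 3xCR (1005, with Srm at 895) and after Srm and Oaz2 in GPC6 tumors (554, with Srm at 872 and Oaz2 at 576). It depends on the length used as well. With the length of the first annotated transcript in place of all exons, Sat1 came first (1784), followed by Srm (1054). The annotated Sat1 gene also has transcripts with retained introns and one marked for nonsense-mediated decay, which the gene count does not separate. Relative to Odc1 per kilobase of exon, Sat1 was at 1.14 to 2.28 in the 3xCR and 0.663 to 1.85 in the GPC6 libraries.

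**Figure D3:**
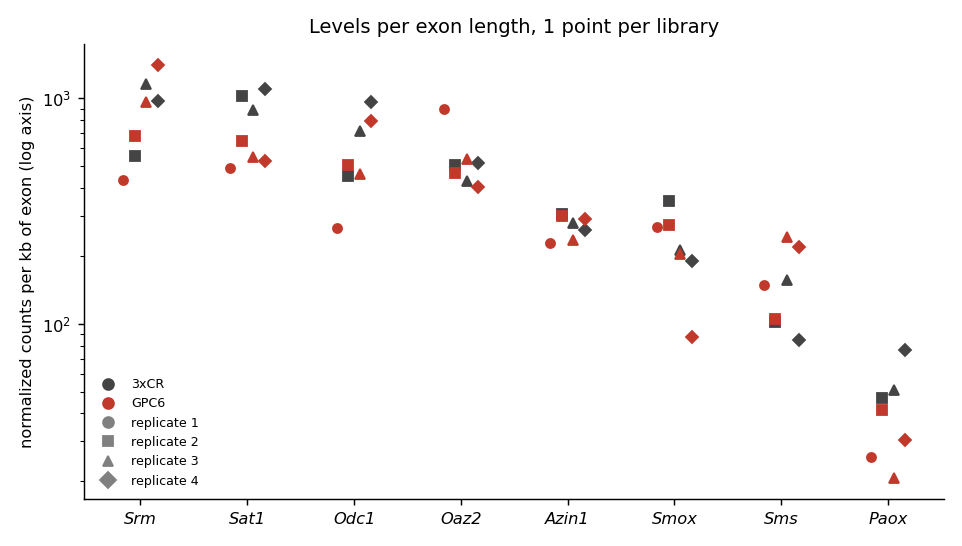
Normalized counts per kilobase of exon (vertical log axis) of the 8 members in each library, ordered by mean. Paox is lowest in all 7 libraries, and the points of Azin1 (227 to 306) lie closest together.

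Variation within the GPC6 group was large for Odc1, Srm and Smox and small for Sat1. Odc1 and Srm were both lowest in GPC6 replicate 1 and, relative to their group means, both highest among GPC6 tumors in replicate 4, where their log2 deviations were 0.76 and 0.83. Smox and Oaz2 deviated the other way in replicate 4, by -1.13 and -0.44. Myc, a transcription factor for which Odc1 is a textbook target, had 210 normalized counts in GPC6 replicate 1, 1015 and 1182 in replicates 2 and 3 and 3820 in replicate 4, against 825, 1392 and 783 in the 3xCR libraries. The 8 summed proliferation markers were likewise lowest in GPC6 replicate 1 (662) and highest in GPC6 replicate 4 (13293), and their part in these patterns was not tested.

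Correlations over the 7 libraries were computed for 36 pairs, the 8 members and Myc with each other. Odc1 and Srm had r = 0.84 (two-sided exact permutation p = 0.022, adjusted p = 0.157) and Spearman's rho = 0.86 (exact permutation p = 0.024, adjusted p = 0.346), and r = 0.84 without the libraries farthest from the median of Odc1. Srm and Myc had r = 0.87 (exact permutation p = 0.0067, adjusted p = 0.0893) and rho = 0.79 (exact permutation p = 0.048, adjusted p = 0.346), and r = 0.75 without the libraries farthest in Srm. Those were 3xCR replicate 2 and GPC6 replicate 1, so GPC6 replicate 4, where Myc was highest (3820), stayed in. Srm and Smox had r = -0.81 (exact permutation p = 0.0099, adjusted p = 0.0893) and rho = -0.79 (exact permutation p = 0.048, adjusted p = 0.346), and r = -0.82 without the libraries farthest in Smox. Oaz2 and Myc had r = -0.91 (exact permutation p = 0.0075, adjusted p = 0.0893) and rho = -0.79 (exact permutation p = 0.048, adjusted p = 0.346), but r = -0.53 without GPC6 replicates 1 and 4, so this relation rests on those libraries. With group means subtracted, r was 0.89 for Odc1 and Srm, 0.88 for Srm and Myc, -0.88 for Srm and Smox and -0.95 for Oaz2 and Myc. Odc1 and Myc had r = 0.71 (exact permutation p = 0.0897, adjusted p = 0.269), and r = 0.80 with group means subtracted. Their rho was 0.43 (exact permutation p = 0.354, adjusted p = 0.712). None of the 36 pairs was below an adjusted p of 0.05. With the group means subtracted, Sat1 and Paox had r = 0.67, Sat1 and Sms r = -0.71, and Sat1 and Odc1 r = 0.29, given as a description.

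**Figure D4:**
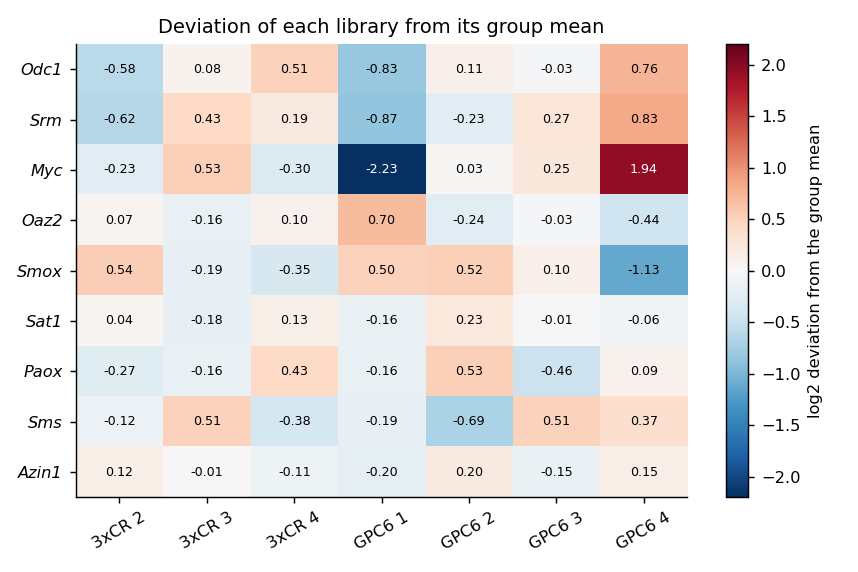
Deviation of the log2(normalized count + 1) value from the mean of its group (color and printed number, log2 units) for 8 members and Myc (rows) in the 7 libraries (columns). Odc1, Srm and Myc are low in GPC6 replicate 1 and high in GPC6 replicate 4, where Smox is at -1.13, while Sat1 stays between -0.18 and 0.23.

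The genes whose log2 values followed Sat1 most closely over the 7 libraries were Mdfi (r = 0.97), an inhibitor of myogenic transcription factors, the homeobox gene Irx3 (r = 0.97) and Mmp2 (r = 0.97), a secreted protease. Mdfi had 64.2 to 144 normalized counts in the 3xCR and 15.5 to 44.5 in the GPC6 libraries. The most opposed were Edc4 (r = -0.98), a scaffold of mRNA decapping, D830031N03Rik (r = -0.97) and Igsf8 (r = -0.97). As these 6 were ranked over both groups against a gene with separate groups, their own groups were separate as well, which 6.32% of all genes tested showed. With group means subtracted, the closest were Gpr137b-ps (r = 0.99), Lamtor1 (r = 0.99), part of the lysosomal complex that recruits mTORC1, and Commd10 (r = 0.99). The groups overlapped in each of them. With group means kept, r was 0.94 for Gpr137b-ps, 0.95 for Lamtor1 and 0.70 for Commd10. All were extremes of a ranking of the 14782 genes tested over 7 libraries, so nothing is read from the size of r. Lamtor1 had 1456 to 2057 normalized counts in the 3xCR and 1042 to 1492 in the GPC6 libraries.

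Of 35 further genes of polyamine metabolism, 33 were found and 29 passed the minimum, and none of them passed the test. None of the 29 had an unadjusted p under 0.05 in limma, edgeR, DESeq2 or voom, against 4.66% of all genes tested in limma, and their adjusted p in limma was 0.730 to 0.997. The mean log2 value was lower in GPC6 tumors for 15 and higher for 14, with a median log2 fold change of -0.0044. Mri1, an enzyme of methionine salvage that recycles the by-product of Srm and Sms, was the 1 gene of the 29 whose groups did not overlap, where 6.32% of all genes tested had separate groups, and 3.52% with GPC6 lower. It had 153 to 228 normalized counts in the 3xCR and 112 to 147 in the GPC6 libraries (log2 fold change -0.52, standard error 0.26, limma adjusted p = 0.730).

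The methionine cycle and salvage genes, 8 in all, had a lower mean log2 value in GPC6 for 6 and a higher one for 2. Mat2a, which makes S-adenosylmethionine, was the most abundant (1847 to 3545 normalized counts over the 7 libraries). Apip had the largest decrease (log2 fold change -0.63) and Mat2b the largest increase (0.38), neither past the test. Among enzymes of arginine and ornithine, Oat had 1194 to 1738 normalized counts in 3xCR and 975 to 1655 in GPC6 tumors and the mitochondrial arginase Arg2, at 5.32 to 41.4 normalized counts, differed by -1.03 on the log2 scale (standard error 0.68).

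Arg1, the cytosolic arginase and a gene of some activated macrophages, varied more than any other gene of the pathway that was tested. It had 4.38, 728 and 217 normalized counts in 3xCR tumors, and 0, 1059, 35.5 and 2815 in GPC6 replicates 1 to 4. The log2 fold change of 0.11 had a standard error of 2.85. The summed markers of macrophages and monocytes also ranged widely, from 607 in GPC6 replicate 1 to 33117 in 3xCR replicate 4, and their part in the spread of Arg1 was not tested.

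Transport genes were mixed, with the mean log2 value lower in GPC6 tumors for 3 of 8 and higher for 5. Slc3a2, the heavy chain shared by several amino acid transporters, had 2222 to 4894 normalized counts in 3xCR and 1849 to 2908 in GPC6 tumors. The lysosomal polyamine exporter Atp13a2 differed by 0.052 on the log2 scale (standard error 0.25), the arginine transporter Slc7a3 the largest decrease (-0.96, standard error 0.65) and Slc22a3 the largest increase on the log2 scale (0.44, standard error 1.69), although its mean normalized count was lower in GPC6 (18.1 against 23.9) and a library of each group was at 0. Of the paralogs, Sat2 had 113 to 167 normalized counts in 3xCR and 145 to 172 in GPC6 tumors (log2 fold change 0.17, standard error 0.25), Oaz3 was higher by 0.76 on the log2 scale (standard error 0.55) and Azin2 differed by -0.46 (standard error 0.60), neither past the test. In the step that uses spermidine to make the hypusine residue of eIF5A, Eif5a had 6902 to 10444 normalized counts in 3xCR and 3858 to 11338 in GPC6 tumors (log2 fold change -0.16) and Eif5a2 a log2 fold change of 0.49. Nfe2l2, which encodes the oxidative stress factor NRF2, differed by -0.67 on the log2 scale (standard error 0.32) and Mycn by 0.44 (standard error 0.44).

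The summed microglial markers, like Sat1 and Paox, were lower in every GPC6 library than in every 3xCR library. Within the groups the orders matched only in part. In 3xCR tumors Paox followed the sum, but replicate 2 had the lowest sum without the lowest Sat1. Among GPC6 tumors, replicate 1 was lowest in the sum and in Sat1, but replicate 3 had the highest sum and the lowest Paox. The sum of 10 markers was 12642, 15769 and 16534 normalized counts in the 3xCR libraries and 8238, 10962, 11467 and 10562 in the GPC6 libraries (exact permutation test, two-sided, p = 0.0571, the smallest possible), and all 10 had a lower mean in GPC6 tumors, with Fcrls at 0 in at least 1 library. Per 1000 normalized counts of these markers, Sat1 had 226, 156 and 184 in the 3xCR and 166, 164, 133 and 139 in the GPC6 libraries, so the groups then overlapped. Paox overlapped as well, at 15.8 to 22.7 and 8.82 to 18.5. These ratios were chosen after the values were seen, and the part of microglia in the difference was not tested.

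The sums of the other marker lists overlapped between the groups. The 10 neuronal markers had 2366 to 6017 normalized counts in 3xCR and 2557 to 60810 in GPC6 tumors, with a higher mean in GPC6 for all 10. The 8 astrocyte markers had 11681 to 46989 and 18607 to 50758, the 6 markers of oligodendrocyte precursors 15737 to 53654 and 14116 to 74713, the 8 of oligodendrocytes 64086 to 80807 and 12774 to 106856, and the 7 endothelial ones 984 to 2905 and 1806 to 2329. No defining marker of neurons, astrocytes, oligodendrocytes, their precursors or endothelial cells was at 0 in any library of this brain tissue. Folr1 and Otx2 of the choroid plexus list and Tmem212 of the ependymal list were at 0 in at least 1 library.

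**Figure D5:**
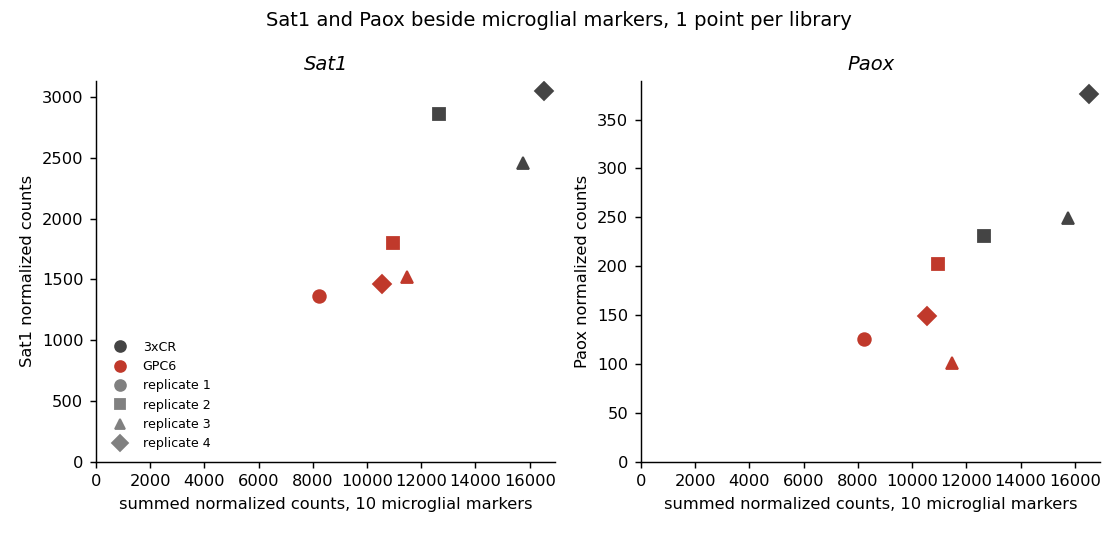
Normalized counts of Sat1 (left) and Paox (right) against the summed normalized counts of 10 microglial markers, 1 point per library, 3xCR in grey and GPC6 in red. The 3xCR libraries (12642 to 16534 on the horizontal axis) lie to the right of and above the GPC6 libraries (8238 to 11467) in both panels.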

How the data were processed

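Bulk RNA-Seq libraries of endpoint tumors, 3 of 3xCR and 4 of GPC6 mice, were grouped by their titles, and the methods call the replicates biological, so p-values measure the spread between these samples. The authors aligned reads to mm10 with STAR 2.5.0a (versions from the submitters' processing notes), counted them on genes with Rsamtools and GenomicFeatures, and divided the counts by DESeq2 1.20.0 size factors; the deposited values are this normalized signal per gene, without correction for gene length. The table has 19282 entries, of which 25 whose names had become dates, with 0.254% to 0.361% of each library's reads, were left out. All values were whole multiples of 1 read (100% within 0.01), which gave back reads.

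Groups were compared in limma 3.58.1 under R 4.3.3, with a variance trend and two-sided p adjusted by Benjamini-Hochberg, using log2(normalized count + 1) of genes with a mean of at least 10. Count tests were kept as alternatives, as normalized values were deposited. edgeR 4.0.16, DESeq2 1.42.0 and voom on the recovered reads, other pseudocounts (0.5, 5), filters (none, a mean of 50) and scalings, library weights, a replicate block and leaving out each library were alternatives. Scripts were tested on simulated counts. Coordinates and exon lengths are from GENCODE M21 (GRCm38). The 7 libraries limit precision more than depth does.

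The members and lists were chosen with earlier results of these data known. Named were all members, in each further list the most abundant gene and those of largest increase and decrease, and the 3 genes most like and most unlike Sat1. Atp13a2, Sat2, Rn45s, Echs1 and the Y-linked genes were named after their values were seen.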

Additional observations from a re-analysis of the deposited data

Results flagged for a closer look

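In the group of 4 GPC6 libraries, 3 of 50 values examined had 1 library farther from the rest than a Dixon test at the 95% level allows, where about 2.5 would be flagged by chance. Adi1, an enzyme of methionine salvage, had 1305 normalized counts in GPC6 replicate 1, where the remaining GPC6 libraries had 423 to 554 and the 3xCR libraries 685 to 750. The summed choroid plexus markers were 12571 normalized counts in the same library, against 63.8 to 370 in the other GPC6 and 208 to 3720 in the 3xCR libraries. The summed T cell markers were 344 in GPC6 replicate 3, against 275 to 283 in the other GPC6 and 308 to 1308 in the 3xCR libraries. No member of the polyamine group was among the 3.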

How the results depend on the processing

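The log2 fold changes of Sat1 (-0.95 to -0.72), Paox (-1.17 to -0.77), Odc1 and Azin1 stayed below 0 and that of Sms above 0 in the main fit and all alternatives run, while those of Smox, Srm and Oaz2 changed sign in at least 1. No member's value moved by more than its spread within groups. At an adjusted p under 0.05, 0 genes passed in limma, 4 with DESeq2 and 1962 with library weights. The library weights called 2 of the 8 members and 1 of the 29 further polyamine genes (Dhps), against 13.3% of all genes tested. As the members were chosen with earlier results known, nothing is read from their count. At an unadjusted p under 0.05 the count was 689 in limma, 1853 with DESeq2, 5105 with library weights, and 119 (without 3xCR replicate 4) to 1401 (without GPC6 replicate 2) with each library left out. It was 379 without 3xCR replicate 3, 385 without GPC6 replicate 3 and 459 without GPC6 replicate 1, and 1137 and 1159 without 3xCR replicate 2 and GPC6 replicate 4. Of the further polyamine genes, 0 were below an unadjusted p of 0.05 in limma. Library weights called 7 of the 29 at that threshold, against 34.5% of all genes tested. With no filter the count was 1 (Aoc1), and with the replicate block 1 (Adi1). In the libraries without Y-linked reads, an alternative added after seeing the data, it was 1 (Adi1). It was 0 to 1 with each library left out. The cause was not tested. Same-numbered libraries deviated from their group means with r of -0.19, 0.12 and 0.30 over genes, and differently numbered ones with r of -0.46 to 0.50. With so few pairs, these values cannot settle whether the numbers pair the samples. The replicate block, over 6 libraries, gave 0 genes past the adjusted and 675 past the unadjusted threshold.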
